A study of Mus musculus with 24 samples.

Results

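The genes described here are 10 markers of Kupffer cells, macrophages that reside in the liver: Clec4f, Marco, Csf1r, Vsig4, Timd4, Cd5l, C1qa, C1qb, C1qc and Cd68. They were taken by name from the array's own annotation, as every spot that was not a control and whose gene name equalled one of the 10 symbols. Where a gene had several probes, the one brightest in Cy5 on average over all arrays stood for it. All 10 were among the 37074 gene names on the array and among the 18649 genes tested. Each was well above background in both channels on 24 of 24 arrays, and none was saturated.

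The study compared the livers of 24 C57BL/6JRcc mice, an inbred laboratory strain, all labelled female. From 3 weeks of age they received a semi-synthetic diet whose monosaccharide, 32% of energy, was either only glucose (12 mice, GLU) or equal shares of glucose and galactose (12 mice, GLU+GAL). Both diets shared the rest of the energy, 16% from fat, 20% from protein and 32% from starch. At 6 weeks of age the food-deprived mice were killed, and total RNA from the right lobe was hybridised to 1 dual-channel array per mouse, with the individual in Cy5 and a pool of all mice in Cy3.

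Kupffer cells line the liver sinusoids, where they bind and engulf bacteria, complement-coated particles, dying cells and aged erythrocytes carried by the portal blood. Their survival depends on signalling through the receptor encoded by Csf1r, and their identity on transcription factors such as the liver X receptor alpha, Spi-C and Id3. They are a main source of C1q, the recognition subunit of the classical complement pathway, whose other components are made largely by hepatocytes. In RNA of a whole lobe, fewer Kupffer cells and less RNA per Kupffer cell cannot be told apart.

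Each probe is a short stretch of its gene's transcript, and 4 of them are printed because the results turn on the C1q genes, which lie side by side, and on the receptors Clec4f and Vsig4. In the mm9 coordinates that the scanner files give, the C1qb probe lies at chr4:136436578-136436637, the C1qc probe at chr4:136445766-136445825 and the C1qa probe at chr4:136452409-136452468, all on the minus strand within 15891 bp. The Clec4f probe lies at chr6:83595281-83595339 and the Vsig4 probe at chrX:93443157-93443216, both on the minus strand. The interval that the scanner files give for Clec4f is slightly shorter than the probe itself. Each probe is 60 bases long and reads, 5′ to 3′ and with no base set in capitals:
C1qa probe: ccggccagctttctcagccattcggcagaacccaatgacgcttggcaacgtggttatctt
C1qb probe: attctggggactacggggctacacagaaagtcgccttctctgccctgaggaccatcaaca
Clec4f probe: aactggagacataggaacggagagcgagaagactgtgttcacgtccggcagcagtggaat
Vsig4 probe: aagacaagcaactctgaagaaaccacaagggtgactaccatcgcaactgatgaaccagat

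Promoters of members are shown because the genes covaried across mice, as described further on. RefSeq promoters of GRCm38.p6, from 250 bases before to 50 after the gene start, were found for 8 of the 10 genes, C1qa and Csf1r being without an entry in the table. In these windows GAGGAA, the core bound by PU.1, the myeloid factor encoded by Spi1, was searched on both strands and is set in capitals (TTCCTC where it lies on the other strand). The 250 bases before the start are printed in the direction of the gene for C1qb (chr4:136886201-136886450), C1qc (chr4:136892915-136893164), Vsig4 (chrX:96293439-96293688) and Clec4f (chr6:83656117-83656366), all on the minus strand:
C1qb promoter: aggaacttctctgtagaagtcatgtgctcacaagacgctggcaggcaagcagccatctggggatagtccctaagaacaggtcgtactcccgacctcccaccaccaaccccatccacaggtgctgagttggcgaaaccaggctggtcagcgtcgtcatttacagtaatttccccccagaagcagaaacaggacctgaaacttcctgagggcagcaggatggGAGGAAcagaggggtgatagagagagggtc
C1qc promoter: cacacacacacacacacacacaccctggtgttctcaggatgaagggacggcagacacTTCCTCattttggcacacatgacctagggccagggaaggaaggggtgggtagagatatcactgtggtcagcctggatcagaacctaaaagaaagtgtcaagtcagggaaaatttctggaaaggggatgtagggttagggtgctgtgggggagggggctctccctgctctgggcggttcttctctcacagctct
Vsig4 promoter: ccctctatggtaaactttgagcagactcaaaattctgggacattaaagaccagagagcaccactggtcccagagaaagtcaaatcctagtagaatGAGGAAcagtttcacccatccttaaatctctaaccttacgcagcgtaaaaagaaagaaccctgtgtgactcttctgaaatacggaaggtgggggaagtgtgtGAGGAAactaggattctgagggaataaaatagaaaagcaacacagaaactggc
Clec4f promoter: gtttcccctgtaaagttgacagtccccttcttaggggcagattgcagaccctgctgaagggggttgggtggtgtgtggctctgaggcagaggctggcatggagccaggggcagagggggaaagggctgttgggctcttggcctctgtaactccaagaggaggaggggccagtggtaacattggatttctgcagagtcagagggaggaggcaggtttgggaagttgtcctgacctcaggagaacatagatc

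The core was present in 6 of the 8 member windows and in 28.3% of 32851 promoter windows of the same length. Counted from the gene start, Vsig4 held 2 copies whose first bases were at -155 and -53, C1qb 1 copy at -30 and C1qc 1 copy at -193. Clec4f and Timd4 held none. The MAF half-site TGCTGA was found in 5 of the 8 windows and in 19.5% of all. The C/EBP site TTGCNNAA was found in that of Cd68 alone and in 10.8% of all. The E-box CACGTG, in 7.15% of all windows, was found in none of the 8. Each motif was searched on both strands, and matches of different motifs did not overlap in the member windows. A match is a match of letters and was not tested as a site. Spi1 itself was on the array but not among the tested genes.

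Per array, 46.6% to 51.3% of spots were well above background in Cy5 and 36.5% to 47.8% in Cy3. All 12 hepatocyte markers, such as Alb and Ttr, were well above background on 24 of 24 arrays, so the labelled tissue was borne out by these genes. The Cy3 signals of GLU+GAL 4 correlated with those of the other arrays at a median of 0.980, where the next lowest array had 0.994, and its log2 ratios had an SD of 0.50, where the next highest had 0.31. GLU+GAL 12 went against its label, since its array showed Eif2s3y and Ddx3y, genes of the Y chromosome, well above background, and none of the other 23 did, whereas Xist was so on the other 23 and not on it. The arrays were on 3 slides of 8, with 4 mice of either diet on each. Values below are log2 ratios of a mouse over the pool, and with no dye swap their distance from 0 is not read.

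All 10 Kupffer cell marker genes had a lower mean in GLU+GAL livers than in GLU livers, beside 49.2% of all tested genes. The differences ran from -0.54 for Marco, a scavenger receptor, to -0.10 for Vsig4, a complement receptor, with a median of -0.20, against 0.0013 over all tested genes. None of the 10 passed the test after adjustment over all genes, each with an adjusted p of 0.999 in limma, and 0% of the 18649 genes did so, the lowest adjusted p being 0.523. At an unadjusted p under 0.05, 6 of the 10 were lower in GLU+GAL (Clec4f, Marco, Csf1r, C1qa, C1qc and Cd68), beside 2.66% of all genes. None was higher at that level, beside 1.65% of all genes, and 4.31% of all genes passed it in either direction. The 10 genes varied together, so these are not 10 separate observations. Every one of them had a lower GLU+GAL mean within each of the 3 slides.

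The count of 6 rested on single arrays. It was 2 without GLU 3, GLU 11, GLU+GAL 7, GLU+GAL 8 or GLU+GAL 9, and 3 without GLU 10 or GLU+GAL 2. Without GLU+GAL 4 it was 6 with a median difference of -0.21, and without GLU+GAL 12 it was 5 with a median of -0.21. Without GLU 11, GLU+GAL 4 and GLU+GAL 12 together it was 1, with a median of -0.17. The direction held for all 10 genes in every one of these fits.

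**Figure D1:**
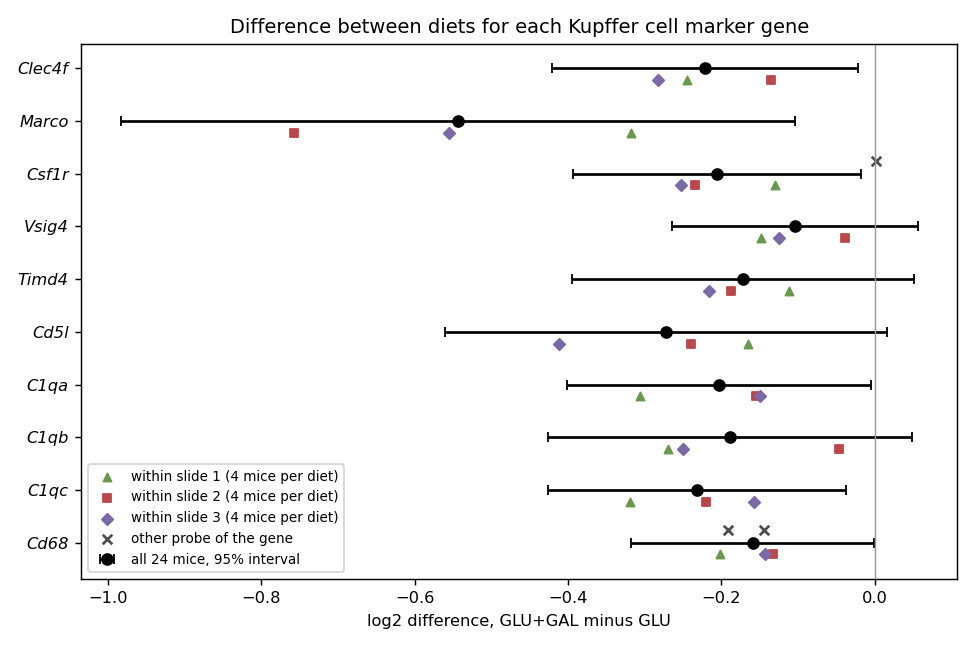
Log2 difference, GLU+GAL minus GLU, for each of the 10 genes (black: all 24 mice with the 95% interval of the limma fit; coloured: within each slide, 4 mice per diet; crosses: other probes of the gene that passed the filter). All 30 slide values lie below 0, Marco has the widest interval (-0.98 to -0.10), and a second Csf1r probe lies at 0.

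Among the receptors that bind sugars and particles, Clec4f, a C-type lectin of mouse Kupffer cells that binds glycans ending in galactose or N-acetylgalactosamine, had a Cy5 signal from 3995 to 8472 over the 24 arrays. Its log2 ratio ran from 0.01 (GLU 8) through a median of 0.19 to 0.70 (GLU 11) in GLU, and from -0.34 (GLU+GAL 9) through -0.04 to 0.47 (GLU+GAL 1) in GLU+GAL. The diets overlapped, but 7 of the 12 GLU+GAL mice lay below the lowest GLU mouse and 2 GLU mice above the highest GLU+GAL mouse. The means differed by -0.22 ± 0.10 (SE, n = 12 per diet; 95% interval -0.42 to -0.02; limma unadjusted p = 0.0312), 0.858 times the GLU level.

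Marco, a class A scavenger receptor that binds bacteria, was the most variable of the 10, with a Cy5 signal from 521 to 3372. It ran from -1.02 (GLU 8) through -0.11 to 1.18 (GLU 11) in GLU and from -1.48 (GLU+GAL 9) through -0.64 to 0.16 (GLU+GAL 3) in GLU+GAL. Only 3 GLU mice, GLU 3, GLU 7 and GLU 11, stood above the highest GLU+GAL mouse, at 0.73, 0.77 and 1.18, and 2 GLU+GAL mice, GLU+GAL 9 and GLU+GAL 12, stood below the lowest GLU mouse. The other mice of the diets shared one range. The difference was -0.54 ± 0.21 (SE, n = 12 per diet; 95% interval -0.98 to -0.10; limma unadjusted p = 0.0172), or 0.686 times the GLU level. It was -0.32, -0.76 and -0.55 within slides 1, 2 and 3, -0.48 without GLU+GAL 12, -0.44 without GLU 11, and -0.35 without GLU 11, GLU+GAL 4 and GLU+GAL 12.

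Timd4, a receptor for phosphatidylserine on dying cells that marks long-resident macrophages, had a Cy5 signal from 185 to 442, at least 5.14 times its local background. Its log2 ratio ran from -0.17 through 0.01 to 0.77 in GLU and from -0.53 through -0.07 to 0.41 in GLU+GAL. The diets overlapped over most of their range, and 8 of 12 GLU+GAL values were under the GLU mean. Below every GLU mouse lay 3 GLU+GAL mice, and above every GLU+GAL mouse lay 2 GLU mice. The difference was -0.17 ± 0.11 (SE, n = 12 per diet, 95% interval -0.40 to 0.05, limma unadjusted p = 0.126). As for the other marker genes, it was smaller than the SD within diets, here 0.28, and it was -0.11 without GLU 11.

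Cd5l, a secreted scavenger-receptor-family protein that keeps macrophages alive and circulates in plasma, had a Cy5 signal from 7240.0 to 22766. It ran from -0.46 (GLU 9) through 0.01 to 0.83 (GLU 3) in GLU and from -0.84 (GLU+GAL 9) through -0.34 to 0.34 (GLU+GAL 1) in GLU+GAL. GLU 3 and GLU 11 lay above every GLU+GAL mouse and 1 GLU+GAL mouse lay below every GLU mouse, so the ranges overlapped widely. The difference was -0.27 ± 0.14 (SE, n = 12 per diet; 95% interval -0.56 to 0.02; limma unadjusted p = 0.0635). Without GLU 3 it was -0.20.

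The 3 chains of C1q, which assemble into the molecule that starts the classical complement pathway, differed by similar amounts. C1qa ran from 0.23 through 0.40 to 0.99 in GLU and from -0.29 through 0.32 to 0.63 in GLU+GAL, with 5 GLU+GAL mice below every GLU mouse. C1qb ran from -0.28 through -0.0045 to 0.86 in GLU and from -0.53 through -0.13 to 0.37 in GLU+GAL, with 2 GLU+GAL mice below every GLU mouse. C1qc ran from 0.13 through 0.37 to 1.03 in GLU and from -0.23 through 0.24 to 0.61 in GLU+GAL, with 5 GLU+GAL mice below every GLU mouse. The Cy5 signals ran from 1101 to 2481 for C1qa, from 940 to 2634 for C1qb and from 2204 to 6532 for C1qc, whose second probe was well above background on 0 of 24 arrays. For each chain GLU 11 was the highest GLU mouse and GLU+GAL 9 the lowest GLU+GAL mouse.

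For C1qa the difference was -0.20 ± 0.10 (95% interval -0.40 to -0.0052; limma unadjusted p = 0.0447), or 0.868 times the GLU level. For C1qb it was -0.19 ± 0.12 (-0.43 to 0.05; p = 0.114), or 0.877 times, and for C1qc -0.23 ± 0.09 (-0.43 to -0.04; p = 0.0210), or 0.851 times, each ± being an SE with 12 mice per diet. The values under the GLU mean numbered 9, 9 and 11 of 12 in GLU+GAL for C1qa, C1qb and C1qc. Without GLU 11 the 3 differences were -0.15, -0.12 and -0.18.

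Vsig4, the macrophage receptor for complement C3 fragments, showed the smallest difference of the 10. It ran from -0.06 (GLU 9) through 0.16 to 0.50 (GLU 3) in GLU and from -0.33 (GLU+GAL 9) through 0.07 to 0.46 (GLU+GAL 1) in GLU+GAL. In all, 1 GLU mouse lay above every GLU+GAL mouse and 3 GLU+GAL mice lay below every GLU mouse. The difference was -0.10 ± 0.08 (SE, n = 12 per diet, 95% interval -0.26 to 0.06, limma unadjusted p = 0.193), and it was -0.07 without GLU+GAL 9. As for the other marker genes, it was smaller than the SD within diets, here 0.20. The Cy5 signal of Vsig4 ran from 407 to 762.

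Csf1r, the receptor for CSF1 and IL-34 on which macrophages depend, was read by 2 probes that disagreed. The brighter, used here, had a signal from 5792 to 11927 and ran from -0.31 (GLU 9) through 0.01 to 0.39 (GLU 11) in GLU and from -0.58 (GLU+GAL 8) through -0.12 to 0.32 (GLU+GAL 11) in GLU+GAL. Its difference was -0.21 ± 0.09 (SE, n = 12 per diet; 95% interval -0.39 to -0.02; limma unadjusted p = 0.0334), with 10 of 12 GLU+GAL mice below the GLU mean. The other probe, earlier in the same transcript and also well above background on all 24 arrays, gave 0.0017 ± 0.05 (limma unadjusted p = 0.974) and correlated with the first at r = -0.04 over the 24 mice. The value for Csf1r therefore holds for 1 probe only.

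Cd68, a glycoprotein of macrophage lysosomes, had a Cy5 signal from 958.5 to 2213. It ran from 0.08 (GLU 8) through 0.24 to 0.60 (GLU 11) in GLU and from -0.31 (GLU+GAL 9) through 0.09 to 0.42 (GLU+GAL 11) in GLU+GAL. In 6 GLU+GAL mice the value lay below that of every GLU mouse, and in 2 GLU mice above that of every GLU+GAL mouse. The difference was -0.16 ± 0.08 (SE, n = 12 per diet; 95% interval -0.32 to -0.00041; limma unadjusted p = 0.0495). Its other probes gave -0.19 (p = 0.0471) and -0.14 (p = 0.243) and correlated with the first at r = 0.66 and r = 0.11.

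**Figure D2:**
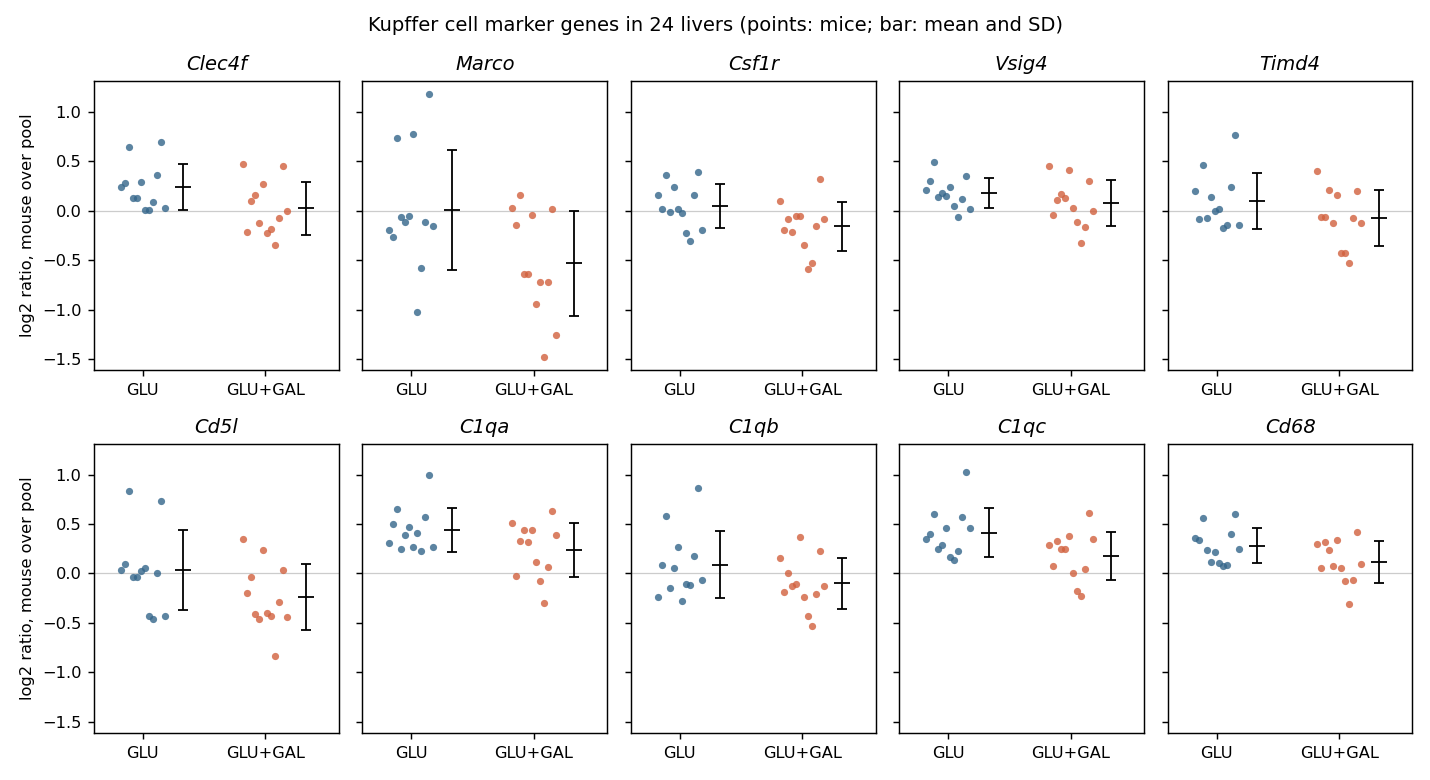
Log2 ratio of each mouse over the pool for the 10 genes (points: mice, 12 per diet; bars: mean and SD). The diets overlap for each gene, and the scatter is widest for Marco, from -1.48 to 1.18.

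The 10 genes followed each other closely from mouse to mouse. Over the 24 mice the 45 pairs had Pearson r from 0.64 to 0.93 with a median of 0.84, and Spearman rho from 0.55 to 0.91 with a median of 0.78. Every pair had a Benjamini-Hochberg adjusted p of 0.00084 or less for r in permutation tests with 100000 resamples, and 0.00602 or less for rho. Among all 171152751 pairs of the 18502 genes with a value on every array, the median r was 0.01, and 0.0476% of pairs reached the median of the 10 genes. The closest pair was C1qa and C1qc, with r = 0.93 (rho 0.84) over 24 mice.

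The covariation was present within each diet and each slide. After diet means were removed, the median r was 0.82, and it was 0.80 within GLU and 0.83 within GLU+GAL. Within slides 1, 2 and 3 the medians were 0.90, 0.80 and 0.86. Leaving out the 2 mice farthest from the median of the pair's first gene gave a median r of 0.76, and 42 of 45 pairs stayed above 0.5. The 3 pairs that did not were those of Marco with C1qa (0.36), C1qc (0.47) and C1qb (0.50), for each of which GLU 11 and GLU+GAL 9 were left out. The first principal component of the 10 standardised genes held 81.6% of their variance with diet means removed.

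**Figure D3:**
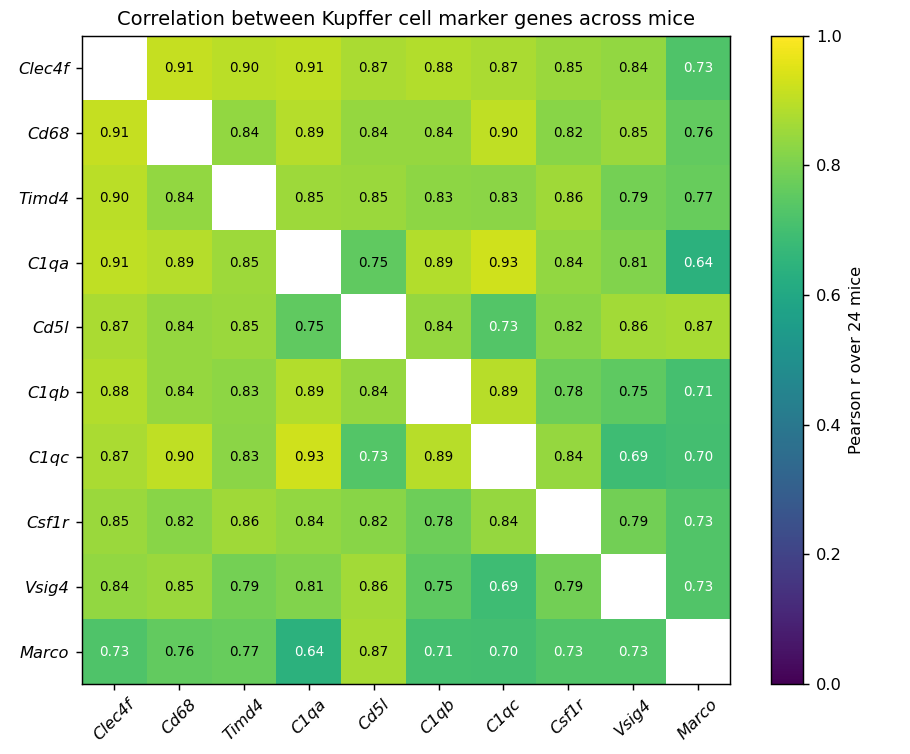
Pearson r over 24 mice for each of the 45 pairs of genes, on a colour scale from 0 to 1, ordered by how closely each gene followed the others. The lowest value is Marco with C1qa (0.64) and the highest C1qa with C1qc (0.93).

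The mean over the 10 genes gives each mouse 1 value. In GLU it ran from -0.13 (GLU 8) through 0.14 to 0.76 (GLU 11), with a mean of 0.18 ± 0.26 (SD, n = 12), and in GLU+GAL from -0.54 (GLU+GAL 9) through -0.08 to 0.32 (GLU+GAL 11), with a mean of -0.05 ± 0.26 (SD, n = 12). GLU 11 was the highest GLU mouse for 8 of the 10 genes and GLU 3 for the other 2, and GLU+GAL 9 was the lowest GLU+GAL mouse for 9 of the 10. GLU 8 was the lowest GLU mouse for 5 genes and GLU 9 for 4. The extremes of each diet were thus the same few animals for most of the 10 genes, and the SD between mice of a diet was no smaller than the difference between diets.

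**Figure D4:**
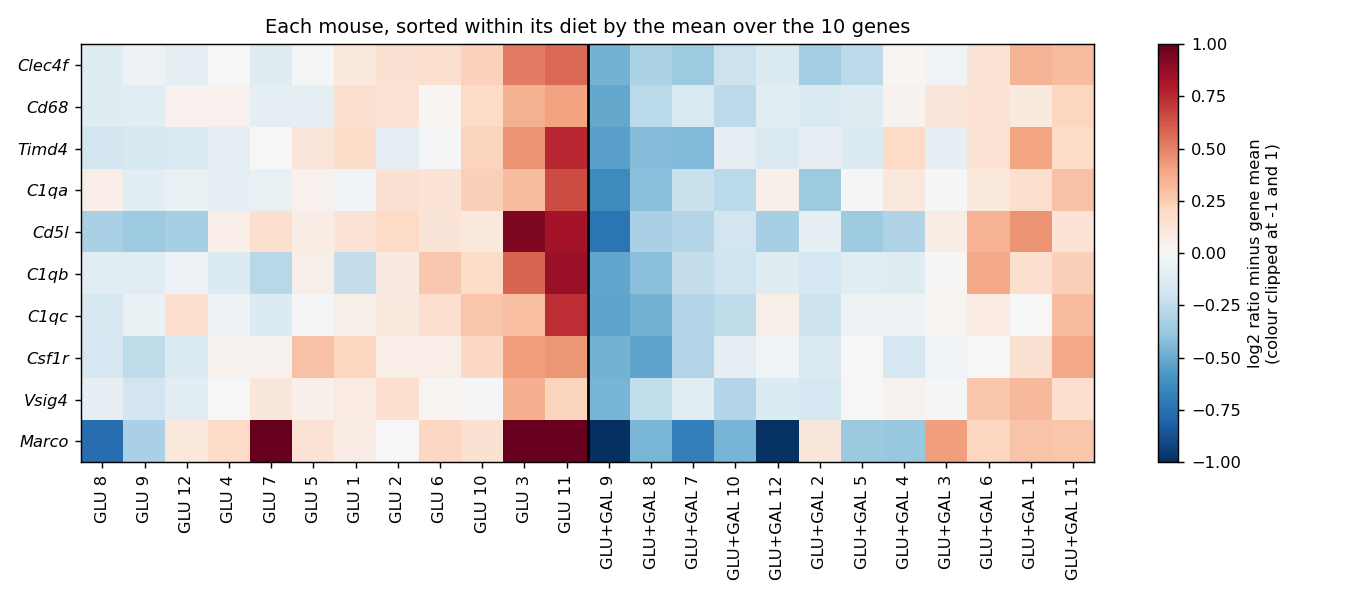
Log2 ratio minus the gene's mean over 24 mice (colour, clipped at -1 and 1) for the 10 genes in each mouse, sorted within its diet by the mean over the 10 genes. Columns are mostly of one colour, with GLU 3 and GLU 11 high and GLU+GAL 9 low in nearly every row, while the Marco row departs in GLU 7 and GLU+GAL 12.

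Marco followed the others least. Its r with the mean of the other 9 was 0.80, against 0.86 for Vsig4 and 0.89 to 0.95 for the other 8, with Clec4f at 0.95 and Cd68 at 0.93 the closest. Marco also had the largest SD within diets, 0.57, against 0.20 for Cd68 and for Vsig4 and 0.37 for Cd5l, the next largest. In GLU 7 Marco stood at 0.77, above the diet's median by more than any mouse but GLU 11, while the mean over the 10 genes in GLU 7 was 0.13. In GLU+GAL 12 Marco stood at -1.25 and the mean over the 10 genes at -0.12. The partner closest to Marco was Cd5l, with r = 0.87 (rho 0.80) over 24 mice. These are descriptions with no test of one gene against another.

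The genes most like the 10 were named by the highest Pearson r with their mean standardised profile over 24 mice, after diet means were removed. They were Aif1 (r = 0.97), which encodes the macrophage protein Iba1, Pilrb1 (0.95), an activating paired receptor of myeloid cells, Vav1 (0.95), an exchange factor of blood cells, and Adgre1 (0.95), which encodes the F4/80 antigen. Cd52 (0.94), Treml4 (0.94), AF251705 (0.93), Ifi30 (0.92), Arhgdib (0.92) and Rgs2 (0.92) followed. All 10 had a lower mean in GLU+GAL, beside 49.2% of all tested genes. The differences ran from -0.04 ± 0.09 for Arhgdib to -0.29 ± 0.09 (SE, n = 12 per diet) for Treml4. Treml4, a myeloid receptor of the TREM family, had a limma unadjusted p of 0.00408 and an adjusted p of 0.985. Since these genes were picked for following the Kupffer cell genes from mouse to mouse, their direction is not a separate observation.

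Of 30 other Kupffer cell and macrophage genes, 26 had a lower mean in GLU+GAL, beside 49.2% of all tested genes. At an unadjusted p under 0.05, 6 were lower (2.66% of all genes). The 30 had a median difference of -0.15, and none was called after adjustment. Those with the smallest p were Cfp (-0.26 ± 0.10), which encodes properdin, Fcna (-0.20 ± 0.08), a ficolin, Fcer1g (-0.25 ± 0.11), the signalling chain of Fc receptors, and Sdc3 (-0.23 ± 0.10), a syndecan, each ± being an SE with n = 12 per diet. Their correlation with the profile of the 10 genes had a median of 0.66, and 22 of 30 were above 0.5, beside 3.82% of the tested genes that are no members. Clec1b (0.87) and Fcer1g (0.91) followed it closely. Nr1h3 (-0.34), the gene of the liver X receptor alpha, and Hpgd (-0.28), a prostaglandin dehydrogenase, ran against it.

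Of 17 tested genes of the CSF1 axis and of macrophage transcription factors, 13 had a lower mean in GLU+GAL (49.2% of all genes). None passed an unadjusted p of 0.05 in limma, and the median difference was -0.07. Id3, a factor of Kupffer cell identity, was the nearest at -0.20 ± 0.10 (SE, n = 12 per diet; limma unadjusted p = 0.0647). The ligands differed by -0.12 ± 0.06 for Csf1 and 0.04 ± 0.07 for Il34, and their correlations with the profile of the 10 genes were 0.07 and -0.01. Irf8, a myeloid transcription factor, had the highest in this list, at 0.77. Among 18 scavenger and efferocytosis receptors, 10 had a lower and 8 a higher mean, with a median of -0.02 that was 0.05, -0.12 and 0.02 within slides 1, 2 and 3. Lbp (-0.15 ± 0.07, SE), the plasma protein that hands endotoxin to its receptor, was the only one at an unadjusted p under 0.05, and Axl, a receptor for dying cells, followed the profile most closely (r = 0.88).

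The complement partners of C1q had lower means in GLU+GAL but mostly did not follow the Kupffer cell genes from mouse to mouse. Of 17 tested, 15 had a lower mean, beside 49.2% of all tested genes. At an unadjusted p under 0.05, 7 were lower, beside 2.66% of all genes. The 17 had a median difference of -0.12, and none was called after adjustment. The median was -0.08 with median normalisation within arrays, -0.06 in the authors' value table, and -0.03 and -0.23 within slides 1 and 2. Cfb (-0.21 ± 0.05), the protease of the alternative pathway, Cfi (-0.20 ± 0.05), the protease that inactivates C3b, Serping1 (-0.18 ± 0.05), the C1 inhibitor, and C3 (-0.24 ± 0.08), the central component, had the smallest p, each ± being an SE with n = 12 per diet. In these 4 genes 11, 11, 12 and 11 of the 12 GLU+GAL values were under the GLU mean. Their list's median correlation with the profile of the 10 genes was 0.02, with C3 at -0.26, Cfb at -0.11 and C1s1, the gene of the C1s protease, at -0.44. Properdin, encoded by Cfp and made by leukocytes, was at 0.91.

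**Figure D5:**
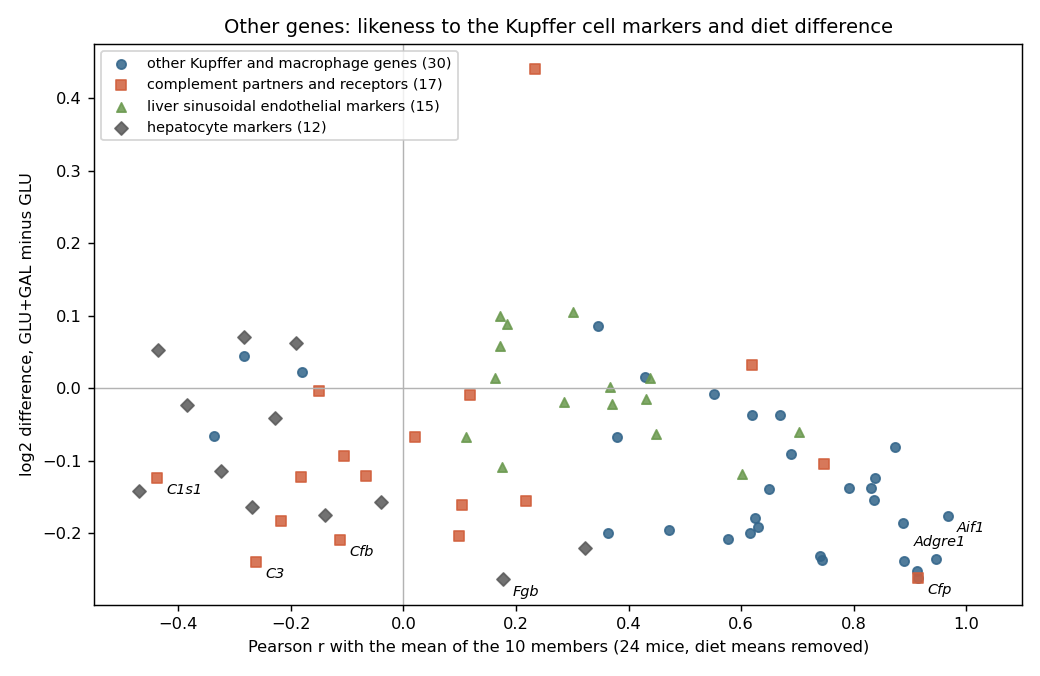
Log2 difference between diets (GLU+GAL minus GLU, vertical axis) against Pearson r with the mean of the 10 genes over 24 mice with diet means removed (horizontal axis), for 4 lists of other genes. Macrophage genes lie mostly to the right (median r 0.66), whereas complement partners (median 0.02) and hepatocyte markers (median -0.25) spread around and left of 0, with lower means on both sides.

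Markers of other liver and blood cells were read beside these results, and their part in them was not tested. Over all tested genes, 49.2% had a lower mean and 2.66% were lower at an unadjusted p under 0.05. These shares stand beside the counts of every list from here on. Of 12 hepatocyte markers, 9 had a lower mean in GLU+GAL and 5 were lower at an unadjusted p under 0.05, with a median of -0.13, among them Fgb (-0.26 ± 0.06), a fibrinogen chain, Hnf4a (-0.16 ± 0.07), Apoa1 (-0.22 ± 0.10) and Serpina1c (-0.16 ± 0.08). The mean over the hepatocyte markers ran from 0.14 to 0.57 in GLU and from 0.10 to 0.44 in GLU+GAL. The median difference of the hepatocyte markers was -0.0027 with the Cy5 channel alone, -0.0050 in the authors' value table, -0.02 with Agilent's processed signals and -0.03 with median normalisation. In those 4 settings that of the 10 Kupffer cell genes was -0.22, -0.19, -0.21 and -0.20. Of 15 markers of sinusoidal endothelium, the neighbours of Kupffer cells, 8 had a lower and 7 a higher mean (median -0.01, or 0.01 without GLU 11, GLU+GAL 4 and GLU+GAL 12), none at an unadjusted p under 0.05, with Ehd3 nearest at -0.11 ± 0.06 (p = 0.0656 in limma). Their mean ran from -0.15 to 0.15 in GLU and from -0.19 to 0.20 in GLU+GAL.

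Lymphocyte markers covaried in part with the Kupffer cell genes. All 7 tested markers of T and NK cells had a lower mean (median -0.09), 1 of them, Cd4, at -0.19 ± 0.08 (limma unadjusted p = 0.0260), and 4 of 5 B cell markers did (median -0.19), with Cd79b at -0.25 ± 0.12 (p = 0.0559). The median of the T and NK cell list was -0.04 without GLU 11 and -0.05 without GLU 3. That of the B cell list was -0.11 without GLU+GAL 5, -0.10 with the mean over a gene's probes and -0.01 within slide 3. The median correlations of these 2 lists with the profile of the 10 genes were 0.57 and 0.56. For the mean of either list GLU 11 was the highest GLU mouse and GLU+GAL 9 the lowest GLU+GAL mouse. Other lists had median correlations of 0.42 (dendritic cells), 0.30 (sinusoidal endothelium) and 0.12 (monocytes and recruited macrophages). Those of erythroid, stellate cell, neutrophil and cholangiocyte markers were 0.10, 0.09, 0.07 and -0.12. Single genes departed from their list's median. In the monocyte list the correlations ran from -0.39 to 0.90, with 2 of 11 above 0.5. In the T and NK cell list they ran from 0.34 to 0.87 (4 of 7 above 0.5), and in the B cell list from 0.11 to 0.83 (3 of 5). Of the tested genes that are no members, 3.82% were above 0.5. The mean over the T and NK cell markers ran from -0.11 to 0.48 in GLU and from -0.33 to 0.15 in GLU+GAL, and that over the B cell markers from -0.09 to 0.42 and from -0.48 to 0.26.

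Of 11 monocyte and recruited-macrophage markers, 7 had a lower mean (median -0.04), with Cd9, a tetraspanin, at -0.18 ± 0.08 (limma unadjusted p = 0.0217), and the mean over the list ran from -0.20 to 0.11 in GLU and from -0.18 to 0.02 in GLU+GAL. Of 7 neutrophil markers, 5 had a lower mean (median -0.13), with Ly6g at -0.23 ± 0.06 (p = 0.000758, adjusted p = 0.744 in limma), but the list's median was 0.23 within slide 1 and -0.43 within slide 2. Stellate cell markers (7 of 12 lower, median -0.04, Lrat -0.16 ± 0.09), dendritic cell markers (5 of 6, median -0.06, Zbtb46 -0.06 ± 0.07) and erythroid markers (4 of 4, median -0.02, Slc4a1 -0.05 ± 0.07, but a median of 0.03 in the authors' value table) had none at an unadjusted p under 0.05. Of 3 cholangiocyte markers 1 had a lower mean (median 0.06, or -0.0038 with Cy5 alone, Cftr 0.10 ± 0.09). Each ± is an SE with 12 mice per diet.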

How the data were processed

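RNA of 24 right liver lobes was measured, 1 mouse per array, in Cy5 against a Cy3 pool of all mice, per the labels' protocols. The deposited scanner files hold spot intensity values from Agilent Feature Extraction (version 10.7.3.1), as named in the submitters' processing notes. A series table deposited by the authors holds log2 values (29287 rows, every column median 8.6). How it was scaled is not given in these sources.

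Mean signals were corrected by normexp (offset 50) and log2 ratios of Cy5 over Cy3 normalised by loess within arrays, giving controls a weight of 0 (limma 3.58.1, R 4.3.3). Outlier-flagged spots were left out and spots of a probe averaged. A gene was tested when its brightest probe passed the scanner's test of signal over background in at least 6 mice of 1 diet. Diets were compared with lmFit and eBayes over 24 arrays, 2-sided, adjusted by Benjamini-Hochberg over 18649 genes with a threshold of 0.05. The number of arrays limits the precision. Correlations used Python 3.11.15 with scipy 1.17.1, and plots matplotlib 3.10.9. The fit was first tested on simulated data.

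The genes and lists were chosen with earlier results of these data known. Lists were matched by symbol (171 genes matched and 2 did not). The rule for named genes took every marker gene, up to 4 genes per list with the smallest unadjusted p under 0.05 (otherwise the nearest gene), and the 10 genes most like the markers. Other genes given with values (Csf1, Il34, Nr1h3, Hpgd, Clec1b, Irf8, Axl and C1s1) were chosen after their values were seen. One gene of the lists is counted but not reported by name here. Alternatives covered background, normalisation, channel, filter, probe, weights, slide, replicate number and left-out arrays. Leaving out 3 arrays together was chosen after seeing the data.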

Additional observations from a re-analysis of the deposited data

How the results depend on the processing

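All 10 marker genes kept a lower GLU+GAL mean, and none was called, under each alternative run, but Csf1r did not with its other probe alone. The median difference lay between -0.25 (array weights) and -0.17 (without GLU 11, GLU+GAL 4 and GLU+GAL 12) in fits of all slides, and between -0.24 and -0.16 when single arrays were left out. It was -0.22, -0.17 and -0.23 within slides 1, 2 and 3. The count of marker genes lower at an unadjusted p under 0.05, 6 in the report, was 2 with Agilent's processed signals, 2 with median normalisation and 1 with the authors' value table. It was 0, 2 and 0 within slides 1, 2 and 3 (fewer mice), 1 without the 3 arrays, and from 2 to 7 when single arrays were left out. The number of all genes called was 0 to 1 when single arrays were left out, the 1 being Zfp787 without GLU 3 (limma adjusted p = 0.0304). The median pairwise r was 0.76 with Cy5 alone and 0.77 with the mean over a gene's probes, against 0.84, and from 0.81 to 0.85 when single arrays were left out. With its other probe alone, Csf1r showed no difference (0.0017 ± 0.05, SE). The cause of these changes was not tested.

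With the replicate number as a block, 9 marker genes were lower at an unadjusted p under 0.05, and 0 of all tested genes were called. The share of all genes lower at that unadjusted level under the block is not given here. The 9 therefore cannot be set beside it, and the 2.66% above belongs to the fit without the block. Same-numbered mice deviated together with r from -0.38 to 0.52, 8 of 12 numbers above 0.1, and 2 of 12 samples correlated best with their own number, all measured over all genes. For the mean over the 10 marker genes alone, same-numbered mice of the diets correlated at r = 0.68 (rho 0.69) over 12 numbers, and the GLU+GAL mouse was the lower in 10 of 12. Under the block the smallest p of a marker gene was that for the difference of C1qc, 0.000636 unadjusted and 0.330 adjusted in limma. The numbers were not taken as a pairing because not every number's correlation over all genes was above 0.1. That rule is no test of pairing, and whether the numbers mark pairs was not tested. The labels do not say that separate mice of a number share a litter.

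A difference the size of these, near 0.2 on the log2 scale, was close to the SD between mice of a diet, 0.26 for the mean over the 10 genes.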
